A study of Mus musculus with 12 samples.

Results

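The unfolded protein response genes described here are Hspa5, Hsp90b1, Ddit3, Atf4, Atf6, Xbp1, Pdia4, Herpud1, Dnajb9 and Calr. They were chosen by name, and every probe set of the array that the annotation assigns to 1 of these symbols alone was kept. A probe set is a group of short array probes against a transcript, and its level is a log2 value. All 10 genes were found, among 12393 genes named by a single symbol, with 21 of the 22626 probe sets tested. Salivary tumors from adult MMTV-ras mice were measured, with 4 tumors per p53 genotype and 1 array per tumor. The genotypes were p53+/+ (WT), p53-/- (KO) and p53R172H/R172H (MT), the last carrying the R172H substitution on both alleles. In the study's cohorts salivary tumors arose earliest in KO and latest in WT mice. Age at sampling may thus differ with genotype, and the labels do not give it for each animal. Every animal carried the ras transgene, an activated Hras driven by the mouse mammary tumor virus (MMTV) promoter, so no group lacks the oncogene and none is normal gland. The mice were of a mixed C57BL/6 and BALB/c background. MT mice came from a colony of their own, founded by mating p53R172H/+ mice on C57BL/6 with MMTV-ras/p53+/- mice of mixed background. In comparisons with MT tumors, colony and share of each strain therefore cannot be told apart from genotype. RNA came from frozen sections of tumor pieces, which the study picked for mostly homogeneous tumor mass and no extensive necrosis. Cells were not sorted, so a lower level can come from fewer cells of a type or from less RNA per cell. These cannot be told apart. The level of p53 itself was not analysed here.

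The endoplasmic reticulum (ER) folds secreted and membrane proteins. When unfolded proteins build up there, the sensors PERK, IRE1 and ATF6 start the unfolded protein response: PERK signaling favors translation of the transcription factor ATF4, IRE1 splices the Xbp1 mRNA, and ATF6 is cut to release an active fragment. The response raises chaperones, folding enzymes and the machinery that degrades misfolded proteins, and under lasting stress ATF4 induces Ddit3, which encodes the pro-apoptotic factor CHOP. Salivary acini secrete large amounts of protein and depend on this machinery. Arrays of this kind measure mRNA, not splicing of Xbp1, cleavage of ATF6 or phosphorylation in the PERK arm.

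The ER stress response elements to which ATF6 and XBP1 bind together with NF-Y are written in some of these promoters, and the 4 that hold them are shown for the position of the elements. The sequences are RefSeq's, on GRCm38.p6, the 250 bases before each annotated gene start, 5′ to 3′ on the gene's strand. Capitals mark ERSE (CCAAT, 9 bases of any kind, CCACG) and ERSE-II (ATTGG, 1 base, CCACG), searched on both strands. Hspa5 lies on the + strand at chr2:34771840-34772089, Hsp90b1 on the - strand at chr10:86705445-86705694, Calr on the - strand at chr8:84846932-84847181 and Herpud1 on the + strand at chr8:94386179-94386428.
Hspa5: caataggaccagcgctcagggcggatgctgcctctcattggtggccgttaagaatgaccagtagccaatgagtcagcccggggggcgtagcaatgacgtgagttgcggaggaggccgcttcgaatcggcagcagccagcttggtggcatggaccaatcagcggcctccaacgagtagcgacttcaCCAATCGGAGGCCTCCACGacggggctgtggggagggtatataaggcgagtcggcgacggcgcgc
Hsp90b1: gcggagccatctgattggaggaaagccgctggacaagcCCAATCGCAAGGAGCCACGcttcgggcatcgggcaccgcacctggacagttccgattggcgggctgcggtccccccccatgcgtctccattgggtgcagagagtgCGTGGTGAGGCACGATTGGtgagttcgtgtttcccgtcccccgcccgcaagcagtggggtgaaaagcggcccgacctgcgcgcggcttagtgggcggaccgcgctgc
Calr: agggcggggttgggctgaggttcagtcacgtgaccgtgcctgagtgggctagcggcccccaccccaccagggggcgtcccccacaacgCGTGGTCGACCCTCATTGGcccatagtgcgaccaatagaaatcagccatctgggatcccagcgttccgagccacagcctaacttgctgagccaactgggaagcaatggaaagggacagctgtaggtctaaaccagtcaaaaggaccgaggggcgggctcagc
Herpud1: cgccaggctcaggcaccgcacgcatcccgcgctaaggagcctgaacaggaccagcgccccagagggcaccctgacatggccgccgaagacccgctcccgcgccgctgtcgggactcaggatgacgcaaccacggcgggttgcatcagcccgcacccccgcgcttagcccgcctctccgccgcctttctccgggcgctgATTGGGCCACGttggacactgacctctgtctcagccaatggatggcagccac

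Windows of 300 bases, which add the 50 bases after the start, were found for 9 of the 10 genes, all but Atf6. ERSE was written in 3 of these 9 windows and in 0.119% of all 32851 windows of that length. In Hspa5 it spanned 65 to 47 bases before the start. Hsp90b1 held it at 212 to 194 bases on the gene's strand and again at 107 to 89 bases on the opposite strand. Calr held it at 162 to 144 bases, also on the opposite strand. ERSE-II was written in Herpud1, 52 to 42 bases before the start, and in 0.0365% of all windows. The core bound by C/EBP-ATF dimers such as CHOP with ATF4 (TGATG, 1 base, AA) was found in Herpud1 alone among the 9, at 112 to 105 bases on the opposite strand, and in 3.97% of all windows. These are matches of letters in a window, and no binding was measured.

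The arrays also differed in control levels and in cell type markers, partly along genotype and partly within it. Added poly-A control transcripts, which are spiked in before labeling, set apart MT1, MT2 and MT3, with mean log2 levels of 10.38 to 10.56, from the 9 remaining tumors, with 3.98 to 4.23. These 3 arrays are called the poly-A group here, since neither labels nor headers name a batch, and with this group as a block a comparison with MT tumors rests on MT4. The 18S rRNA control was at 8.90 to 9.33 in WT1, WT2 and WT3, at 7.51 in WT4, at 7.36 to 8.03 in KO tumors, at 6.41 to 6.59 in MT1, MT2 and MT3 and at 7.66 in MT4. Markers of salivary acini and demilunes, 9 of 11 listed genes measured, averaged 10.35 to 11.58 in WT tumors, 8.67 to 9.49 in KO and 8.69 to 9.66 in MT tumors. Of these 9, Prpmp5 and Dcpp1 passed the limma test of WT against KO tumors, where 4.57% of all probe sets passed, with WT higher by a log2 difference of 4.91 and 3.16. The WT minus KO difference was above 0 for 7 of the 9 and below 0 for Pip (-1.57, unadjusted p = 0.012, adjusted p = 0.103 from limma) and Aqp5 (-0.50). B and plasma cell markers, 7 of 10 measured, averaged 9.55 in WT1 and 5.25 to 5.57 in the other 11 tumors. The plot of acinar and of B and plasma cell markers shows both patterns. Markers of luminal epithelium were all measured and none was below the overall median on every array, with means of 9.58 to 10.87 in WT, 10.80 to 11.05 in KO and 10.3 to 11.06 in MT tumors. Their WT minus KO differences were below 0 for 6 of 6 (median -0.61), of which 0 passed and 3 had an unadjusted p under 0.05, Krt19 (-0.75), Epcam (-0.47) and Cdh1 (-0.77). Of 7 macrophage markers 6 had differences above 0 (median 0.57), and Cd68 passed (0.91, adjusted p = 0.0483 from limma, or 0.0537 with the poly-A group as a block). At an unadjusted p under 0.05 from limma there were 4 of these markers, 3 higher and 1 lower in WT than in KO tumors. That list averaged 8.66 to 9.45 in WT and 8.54 to 9.22 in KO tumors. None of the measured markers of granular ducts (3 of 6), basal and myoepithelial cells (6 of 6), fibroblasts (6 of 6) or skeletal muscle (5 of 5) passed in any comparison. Single tumors stood apart, which a test between genotypes does not show. KO3 averaged 9.43 for granular ducts, against 5.13 to 6.33 in the other 11 tumors. MT1 averaged 6.39 for skeletal muscle, against 4.98 to 5.48, with 4 of these 5 markers below the overall median on every array.

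**Figure D1:**
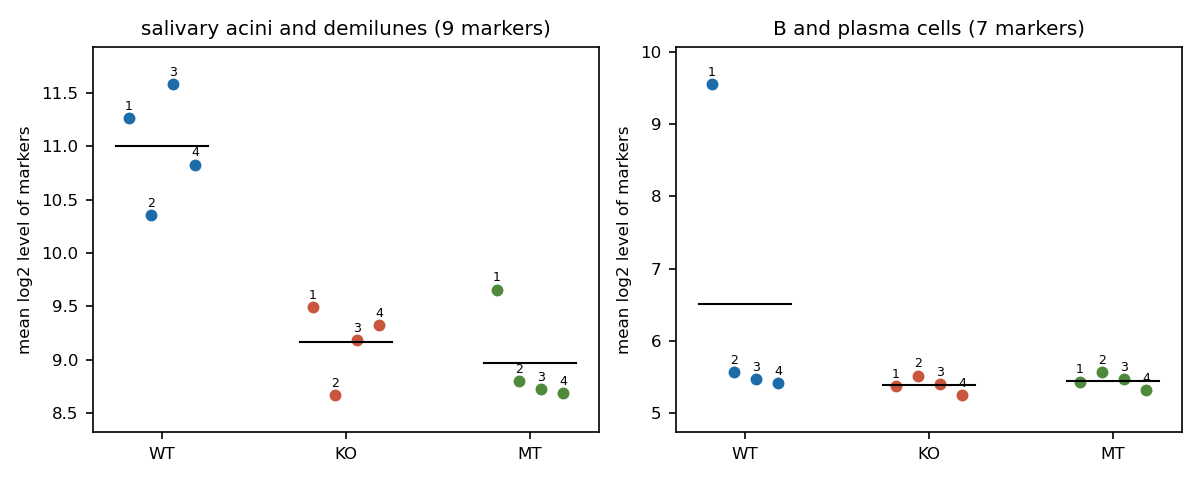
Mean log2 level of the measured markers of salivary acini and demilunes (left) and of B and plasma cells (right), each point being a tumor with its number and each bar a genotype mean. WT tumors lie at 10.35 to 11.58 for the acinar list and the KO and MT tumors at 8.67 to 9.66, while WT1 stands alone at 9.55 for the B and plasma cell list.

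No member probe set passed the test between genotypes. With limma and Benjamini-Hochberg adjustment over all probe sets, 0 of the 21 probe sets passed an adjusted p of 0.05 in the comparison of WT with KO tumors, where 4.57% of all probe sets passed. The comparison of MT with KO tumors also gave 0 of 21, against a background of 0.00884%, and that of MT with WT tumors gave 0 of 21, against 0.367%. An unmoderated equal-variance test of the 8 tumors also gave 0 of 21 in each comparison. At an unadjusted p under 0.05 from limma, 6 probe sets of 5 genes were found between WT and KO tumors (28.6% of the members, 23.9% of all), 5 between MT and KO tumors (23.8% against 9.58%) and 2 between MT and WT tumors (9.52% against 19.4%). The lowest adjusted p-values from limma were 0.115, 0.295 and 0.128 in the same order. The 3 comparisons share tumors and are not independent of each other.

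A p that misses the threshold does not show equal levels. The 95% intervals of the 21 differences reached 0.271 to 0.837 on the log2 scale to either side, with a median of 0.549. Intervals lay wholly within a log2 difference of 1 for 15 probe sets in WT against KO, 13 in MT against KO and 17 in MT against WT. Levels also varied among tumors of 1 genotype: the median SD within a genotype was 0.382, against 0.272 over all probe sets, and the median range over the 12 tumors was 1.38 against 1.02. Genotype accounted for a median of 28.4% of the sum of squares of a member and of 27.4% over all probe sets. On the array, 19 of the 21 exceeded the overall median in at least 4 tumors. The other two were the dim probe sets 1439258_at of Atf4 and 1450620_at of Pdia4.

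**Figure D2:**
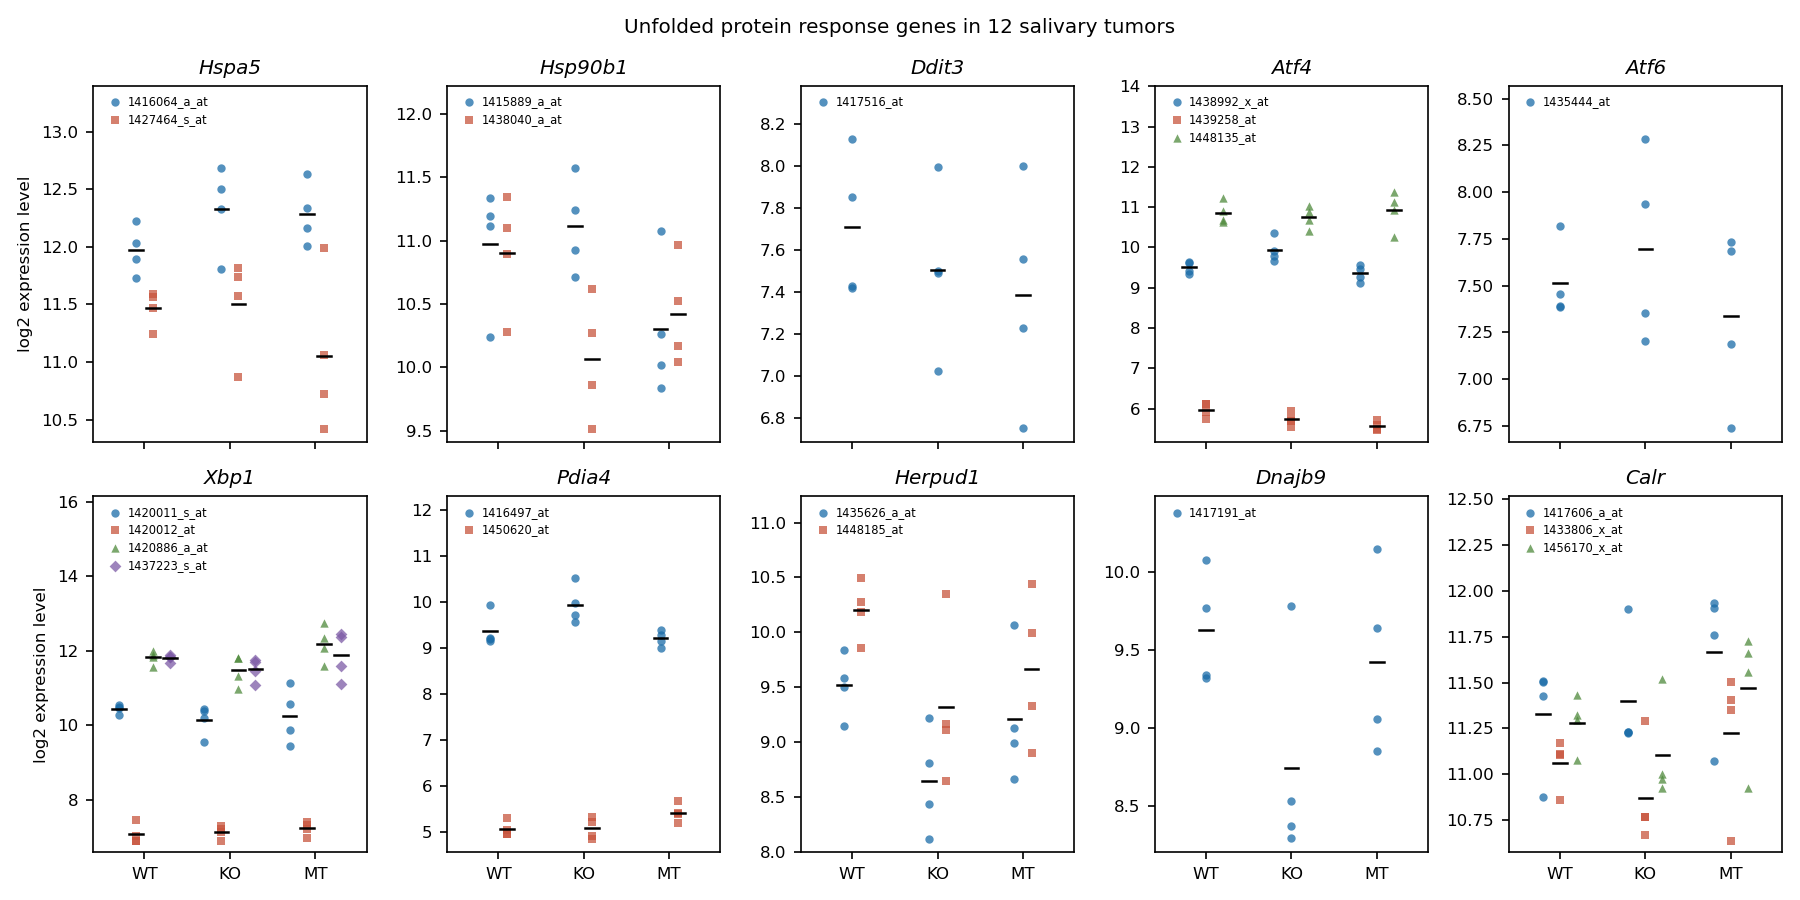
Log2 expression level of the 21 probe sets of the 10 genes in each tumor, 1 panel per gene with its own scale, points for tumors and bars for genotype means (n = 4). Levels of different probe sets of a gene are not comparable with each other. WT and KO tumors do not overlap at 1438992_x_at of Atf4, and MT and KO tumors do not overlap there or at 1416497_at of Pdia4.

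Of the sensors and transcription factors, Atf6, the membrane-bound factor, had levels of 7.38 to 7.82 in WT, 7.20 to 8.29 in KO and 6.74 to 7.73 in MT tumors. The 3 genotypes overlapped throughout, and the highest and the lowest of the 12 values were those of KO1 and MT1.

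Xbp1, the factor whose mRNA IRE1 splices, was read by 4 probe sets. At 1420886_a_at the levels were 11.57, 11.88, 11.83 and 12.00 in WT tumors, 10.98, 11.81, 11.80 and 11.32 in KO tumors, and 11.58, 12.75, 12.07 and 12.33 in MT tumors. MT2 was highest and KO1 lowest, and the genotypes overlapped. The mean was 12.18 ± 0.49 (SD, n = 4) in MT and 11.48 ± 0.40 in KO tumors, and limma gave a difference of 0.70 (SE 0.25, unadjusted p = 0.0164, adjusted p = 0.399), or 0.85 with the poly-A group as a block. The 2 other bright probe sets followed the same tumors, with correlations to this one of 0.87 for 1437223_s_at and 0.64 for 1420011_s_at over 12 tumors, yet their MT and KO means stood closer: 11.88 and 11.50 at the former, 10.25 and 10.13 at the latter. With the poly-A group as a block that order was not kept, since the differences of MT from KO became 0.96 and 0.99 (unadjusted p = 0.0322 and 0.0294, adjusted p = 0.776 and 0.767 from limma). At 1420012_at all 12 tumors lay between 6.88 and 7.46.

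Atf4, the factor downstream of PERK, gave different answers at its 3 probe sets. At 1438992_x_at the WT tumors had 9.35, 9.62, 9.42 and 9.63, the KO tumors 9.67, 9.90, 9.79 and 10.37, and the MT tumors 9.48, 9.58, 9.12 and 9.28. Every KO tumor lay above every WT and every MT tumor. WT tumors were lower than KO tumors by a log2 difference of -0.42 (SE 0.16, unadjusted p = 0.022, adjusted p = 0.138 from limma) and MT tumors by -0.57 (SE 0.16, unadjusted p = 0.00432, adjusted p = 0.295), or -0.66 with the poly-A group as a block. Without KO4 the WT difference was -0.28 and the MT difference -0.42. The suffix _x_at marks probe sets with probes that can match other sequences.

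At 1448135_at, the brightest probe set of Atf4, no such order was seen. Its WT tumors had 10.67, 11.23, 10.63 and 10.91, its KO tumors 10.41, 10.88, 10.69 and 11.02, and its MT tumors 11.12, 11.37, 10.94 and 10.26. Correlations of this probe set with the other two over 12 tumors were 0.23 and 0.26. At the dim 1439258_at the order was another: 6.13, 6.12, 5.91 and 5.73 in WT, 5.55, 5.74, 5.70 and 5.95 in KO, and 5.47, 5.71, 5.60 and 5.49 in MT tumors. There MT tumors lay below all WT tumors, with a difference of -0.41 (SE 0.12, unadjusted p = 0.00679, adjusted p = 0.128 from limma) and -0.49 with the poly-A group as a block.

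Groups without overlap were found at 1 member probe set in WT against KO (14.5% of all probe sets), 2 in MT against KO (4.85%) and 1 in MT against WT (10.9%), counting those of Atf4 above and 1416497_at of Pdia4 below.

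Ddit3, which encodes CHOP, ranged over 7.42 to 8.13 in WT, 7.02 to 8.0 in KO and 6.75 to 8.0 in MT tumors. In each genotype the spread within it was wider than the distance between the genotype means of 7.71, 7.50 and 7.38.

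Among the chaperones, Hspa5 (BiP), the ER Hsp70 that also holds the sensors inactive, was bright in every tumor. At 1416064_a_at its levels were 11.90, 11.73, 12.03 and 12.22 in WT tumors, 12.33, 12.50, 11.81 and 12.68 in KO tumors, and 12.16, 12.00, 12.34 and 12.63 in MT tumors. KO4 and MT4 were highest, and the groups overlapped. At 1427464_s_at the same tumors had 11.57, 11.24, 11.59 and 11.47, then 11.74, 11.58, 10.87 and 11.81, then 10.73, 10.42, 11.06 and 11.99. The mean of MT tumors was thus above that of WT tumors at the former probe set (12.28 and 11.97) and below it at the latter (11.05 and 11.47). MT was above WT at both once the poly-A group was a block, by 0.66 (unadjusted p = 0.0476, adjusted p = 0.57 from limma) and 0.52. MT4 lay above the other 3 MT tumors at both, by 0.47 and 1.25 over their mean.

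Hsp90b1 (GRP94), the ER Hsp90, also depended on the probe set. At 1438040_a_at the levels were 11.10, 10.27, 10.89 and 11.35 in WT, 10.62, 9.51, 9.86 and 10.27 in KO, and 10.16, 10.04, 10.53 and 10.97 in MT tumors. WT tumors were mostly above KO tumors, with WT2 within the KO range. The means were 10.90 ± 0.46 and 10.06 ± 0.48 (SD, n = 4), a difference of 0.84 (SE 0.29, unadjusted p = 0.0151, adjusted p = 0.115 from limma). With the tumor number as a block the adjusted p from limma was 0.0446. At 1415889_a_at the WT tumors had 11.33, 10.24, 11.12 and 11.19, the KO tumors 11.24, 10.93, 10.72 and 11.57, and the MT tumors 10.02, 9.84, 10.26 and 11.08. Here the WT and KO means were 10.97 and 11.11, so the WT difference of the first probe set was not seen at the second. MT tumors were lower than KO tumors at the second by -0.82 (SE 0.31, unadjusted p = 0.0224, adjusted p = 0.43 from limma), but with the poly-A group as a block, resting on MT4, the value was -0.04.

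Calr (calreticulin), a lectin chaperone of glycoproteins, was read by 3 probe sets that moved together, with correlations of 0.91, 0.91 and 1.00 over 12 tumors. At 1417606_a_at the WT tumors had 11.50, 10.87, 11.51 and 11.43, the KO tumors 11.23, 11.23, 11.23 and 11.90, and the MT tumors 11.76, 11.91, 11.94 and 11.07. The genotypes overlapped because single tumors stood away from their groups: WT2 low, KO4 high and MT4 low. Without MT4, which the poly-A controls set apart from them, the MT tumors were at 11.76 to 11.94. The MT minus KO differences of the 3 probe sets were 0.27, 0.35 and 0.37, none with an unadjusted p under 0.05, and with the poly-A group as a block, where they rest on MT4, they turned to -0.33, -0.23 and -0.18.

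Dnajb9 (ERdj4), a J-domain co-chaperone of BiP, had levels of 9.77, 9.32, 9.34 and 10.08 in WT tumors, 8.54, 8.38, 8.30 and 9.78 in KO tumors, and 8.85, 9.64, 9.06 and 10.14 in MT tumors. KO1, KO2 and KO3 lay below all the other tumors, and KO4 lay within the WT range. WT exceeded KO by 0.88 (SE 0.36, unadjusted p = 0.0329, adjusted p = 0.168 from limma). Without KO4 the difference was 1.22 (adjusted p = 0.0524 from limma). MT exceeded KO by 0.68 (unadjusted p = 0.0879 from limma). With the poly-A group as a block, where it rests on MT4, that value was 1.40.

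Pdia4 (ERp72), a protein disulfide isomerase, had levels at 1416497_at of 9.15, 9.21, 9.23 and 9.95 in WT tumors, 9.99, 9.56, 9.72 and 10.52 in KO tumors, and 9.01, 9.30, 9.39 and 9.17 in MT tumors. All KO tumors were above all MT tumors, and WT4 alone among WT tumors reached the KO range. WT tumors were lower than KO tumors by -0.56 (SE 0.23, unadjusted p = 0.0288, adjusted p = 0.156 from limma). MT tumors were lower than KO tumors by -0.73 (SE 0.23, unadjusted p = 0.00754, adjusted p = 0.333), or -0.78 with the poly-A group as a block. Without KO4 the WT difference was -0.37 and the MT difference -0.54. The dim 1450620_at did not follow the first, with a correlation of -0.29 over 12 tumors, or 0.06 for deviations from genotype means. Its MT tumors, at 5.41, 5.40, 5.69 and 5.19, differed from KO tumors by 0.34 (SE 0.15, unadjusted p = 0.0407, adjusted p = 0.49 from limma) and from WT tumors by 0.35 (SE 0.15, unadjusted p = 0.0359, adjusted p = 0.228). These differences were 0.11 and 0.12 with the poly-A group as a block.

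Herpud1, a membrane protein that supports ER-associated degradation of misfolded proteins, gave the same picture at both of its probe sets, whose levels correlated at 0.92 over 12 tumors. At 1448185_at the WT tumors had 10.28, 10.49, 9.85 and 10.19, the KO tumors 9.11, 8.65, 9.16 and 10.35, and the MT tumors 8.90, 10.44, 9.32 and 9.99. At 1435626_a_at they had 9.50, 9.84, 9.14 and 9.58, then 8.44, 8.11, 8.81 and 9.22, then 8.66, 10.07, 8.99 and 9.13. KO1, KO2 and KO3 were below every WT tumor at both, and KO4 was not. WT exceeded KO by 0.88 (SE 0.38, unadjusted p = 0.0401, adjusted p = 0.186 from limma) and by 0.87 (SE 0.31, unadjusted p = 0.0153, adjusted p = 0.116). Without KO4 these were 1.23 and 1.06 (adjusted p = 0.0648 and 0.0816 from limma).

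The WT tumors that were higher for Herpud1, Dnajb9 and 1438040_a_at of Hsp90b1 also had the high acinar markers given above, at 10.35 to 11.58. KO tumors had 8.67 to 9.49 and MT tumors 8.69 to 9.66, and MT means of the genes lay between those of WT and KO. They were 10.42 for Hsp90b1, 9.66 and 9.21 for Herpud1 and 9.42 for Dnajb9. Among WT tumors, WT2 had the lowest acinar mean, the highest Herpud1 levels and the lowest Hsp90b1 and Dnajb9 levels. WT3 had the highest acinar mean and the lowest Herpud1 levels. The lower values of luminal markers, the higher values of Cd68 and those of the 18S control in WT against KO tumors are given above too. The part of all of these in the differences was not tested. Leaving out WT1, the tumor with B and plasma cell markers, gave WT minus KO differences of 0.77 for Hsp90b1 at 1438040_a_at and 0.83 for Dnajb9. For Herpud1 it gave 0.86 at 1448185_at and 0.88 at 1435626_a_at. Over all tumors the values were 0.84, 0.88, 0.88 and 0.87 in the same order. Without WT1 the adjusted p-values from limma were 0.223, 0.285, 0.296 and 0.198. The part of B and plasma cells in the differences was not tested.

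**Figure D3:**
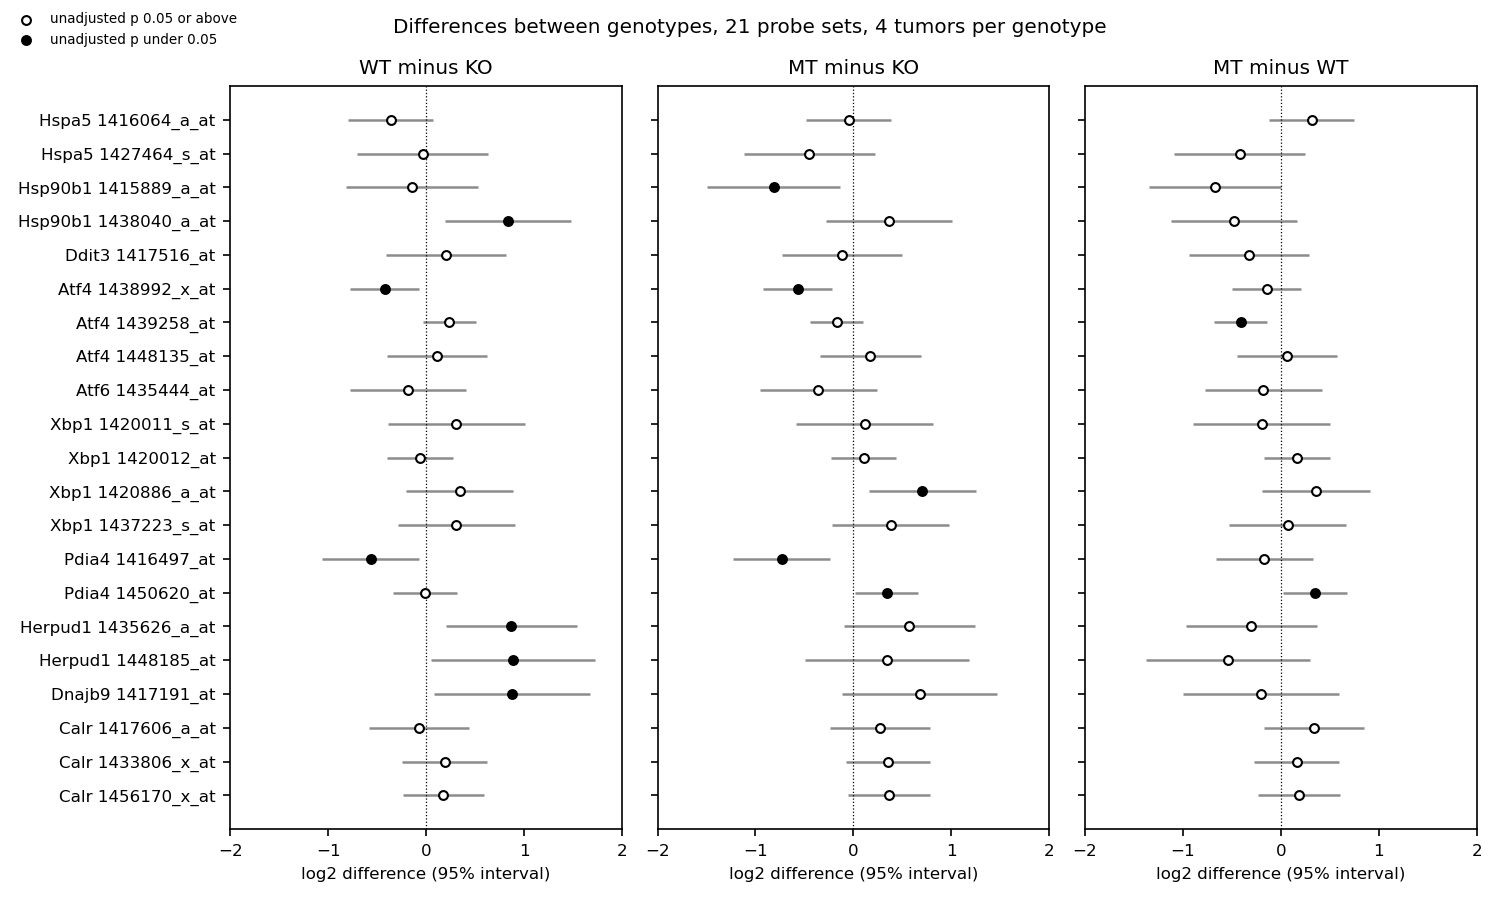
Differences between genotype means on the log2 scale for the 21 probe sets, with 95% intervals from limma (4 tumors per genotype). Filled points have an unadjusted p under 0.05, of which there are 6, 5 and 2 in the 3 panels, and none passed after adjustment over all probe sets.

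Direction varied over the list. In WT against KO tumors, 12 of 21 differences were above 0 (52.6% of all probe sets), with a median of 0.18 against 0.02 over all probe sets. In MT against KO tumors 13 were above 0 (53.4% of all), with a median of 0.17 against 0.02, and in MT against WT tumors 9 (48.8% of all), with a median of -0.17 against -0.01. With the poly-A group as a block, 8 of the 21 differences of MT from KO tumors and 10 of those of MT from WT tumors changed sign, and the medians became 0.09 and 0.06. MT4 lay outside the range of the other MT tumors at 13 of 21 member probe sets (61.9%), against 63.1% of all probe sets.

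A few tumors carried much of the variation within genotypes. KO4 was the highest KO tumor at 14 of the 21 probe sets and the lowest at 0, against 26.0% highest over all probe sets. MT1 was the lowest MT tumor at 11 (24.0% over all) and the highest at 0, and WT4 was the highest WT tumor at 11 (28.1% over all). On average over the 21 probe sets, KO4 lay 0.35 above its genotype mean and MT1 lay at -0.30. The signal at the 3′ end of the actin control over that at its 5′ end, a measure of RNA integrity, was 1.05 on the log2 scale in KO4, while the remaining 11 tumors had 0.17 to 0.58. Its part in the levels of KO4 was not tested. The same KO4 values narrowed the WT minus KO differences of Dnajb9 and Herpud1 and widened those of Atf4 at 1438992_x_at and Pdia4.

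**Figure D4:**
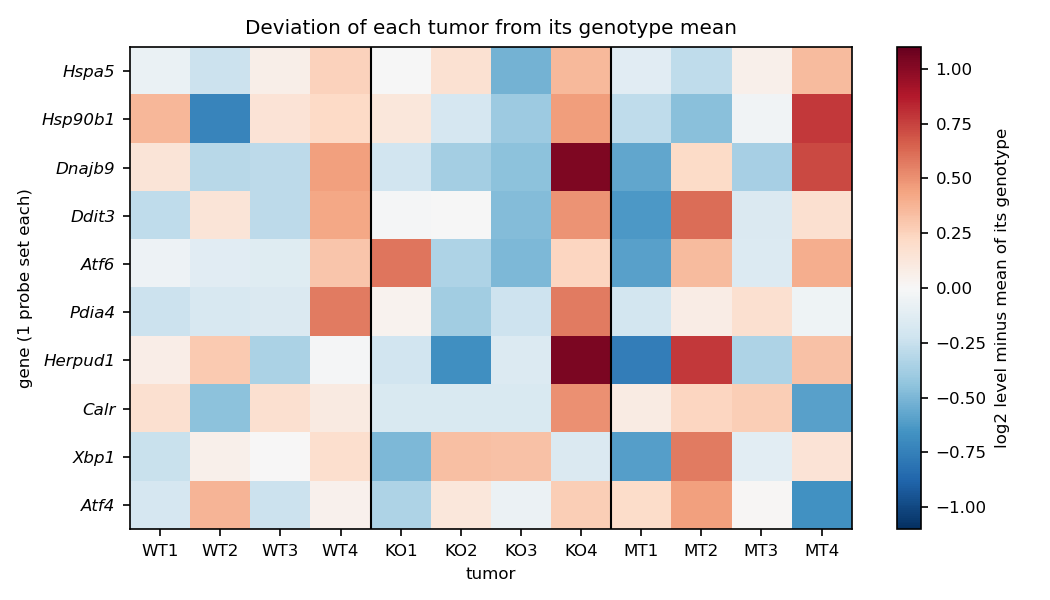
Log2 level of each tumor minus the mean of its genotype, for the probe set of each gene with the highest mean, with tumors in columns. KO4 is above its genotype mean for 9 of the 10 genes, and Hspa5 and Hsp90b1 follow each other over most tumors (r = 0.78).

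To see which members varied together, deviations from genotype means were correlated over the 12 tumors, with 1 probe set per gene and exact permutation of tumors within genotypes. Of 9 members set against Hspa5, Hsp90b1 alone passed, with Pearson's r of 0.78 (exact permutation p = 0.00434, adjusted p = 0.0391 over the 9) and Spearman's rho of 0.81 (exact permutation p = 0.00376, adjusted p = 0.0339). Both chaperones were low in WT2, KO3 and MT2 and high in KO4 and MT4. Without KO3 and KO4, the tumors farthest from the median of Hspa5, r was also 0.78. The call was nevertheless lost when any 1 of 9 tumors was left out, KO3 and KO4 among them, and kept without KO2, WT1 or WT4. With the poly-A group as a block r was 0.71 and did not pass, but for correlations that block amounts to leaving out MT4. With the other Hspa5 probe set, r was 0.86 (exact permutation adjusted p = 0.0026).

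For the other members r with Hspa5 was 0.63 for Dnajb9 (exact permutation adjusted p = 0.389), 0.49 for Pdia4, 0.45 for Atf6, 0.40 for Ddit3, 0.13 for Herpud1, 0.11 for Calr, -0.16 for Xbp1 and -0.33 for Atf4, and none passed. As a description, the highest of the other pairs were Herpud1 with Dnajb9 at 0.79, Ddit3 with Herpud1 at 0.77, Ddit3 with Atf6 at 0.74 and Ddit3 with Dnajb9 at 0.73, and the lowest was Hsp90b1 with Atf4 at -0.70. The genes of a tumor share 1 array and its normalization. The 6 pairs of genes whose windows both hold ERSE or ERSE-II, shown in capitals above, had a median r of 0.16 (0.09 to 0.78), and the other 39 pairs had 0.38 (-0.70 to 0.79). The 2 medians became 0.52 and 0.46 with the poly-A group as a block, and Hsp90b1 with Calr went from 0.09 to 0.86. Here too the block amounts to leaving out MT4. Among non-members the deviations most like those of Hspa5 were of Aff1 and Mycbp (both r = 0.91), Zc3h7a (0.89), Rheb and Trim26 (both 0.88), the 5 highest over the probe sets with a single symbol and 12 tumors.

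The wider machinery was read from 6 lists, with the brightest probe set of each gene. In WT against KO tumors, 1 of 11 measured genes of the ER stress sensors and their proteases passed, 0 of 26 ER chaperones and folding enzymes, 0 of 18 genes of ER-associated degradation, 0 of 23 of the PERK-ATF4-CHOP arm, 2 of 20 of ER translocation and signal peptide removal, and 0 of 13 cytosolic and mitochondrial heat shock proteins. All 3 were higher in WT tumors, where 2.64% of all probe sets were called higher. Unadjusted p-values under 0.05 were found for 1, 4, 4, 2, 5 and 3 genes in the same order, 17.1% of the 111 genes against 23.9% of all probe sets. The median differences of the lists were 0.14, 0.07, 0.13, -0.05, 0.22 and -0.10, against 0.02 over all probe sets. None of the genes passed in MT against KO or MT against WT tumors, where the 6 lists held 11 and 18 genes at an unadjusted p under 0.05 (9.91% against 9.58% of all probe sets, and 16.2% against 19.4%).

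Atf6b, the paralog of Atf6, had levels of 8.32, 7.67, 7.95 and 7.73 in WT tumors, 6.93, 7.26, 7.02 and 7.30 in KO tumors and 7.37, 7.70, 7.48 and 7.52 in MT tumors. WT and KO tumors did not overlap, and the difference was 0.79 (SE 0.15, adjusted p = 0.0206 from limma). Without KO3 or WT3 it no longer passed, at 0.66 to 0.87 over the 8 tumors left out in turn and an adjusted p of up to 0.0602.

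Sec61b, a subunit of the channel through which new proteins enter the ER, had 11.64, 11.14, 11.40 and 11.41 in WT tumors against 10.34, 10.98, 10.31 and 10.85 in KO tumors, a difference of 0.78 (SE 0.20, adjusted p = 0.0491 from limma), which was lost on leaving out any 1 of WT1, WT3, WT4 or the 4 KO tumors, with the tumor number as a block (adjusted p = 0.0639) and with the poly-A group as a block (0.0544). Ssr4, of the translocon-associated complex, had 11.67, 11.41, 11.50 and 11.33 against 11.12, 10.33, 10.47 and 9.93 at 1448524_s_at, a difference of 1.01 (SE 0.24, adjusted p = 0.0408 from limma). Its other 2 probe sets gave -0.11 and 0.15 and did not pass, and the call was lost without WT1, WT2, WT3, KO2, KO3 or KO4 and with the tumor number as a block (adjusted p = 0.0591). The acinar, luminal and macrophage markers and the 18S control given above come from the same arrays, and their part in these 3 differences was not tested.

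**Figure D5:**
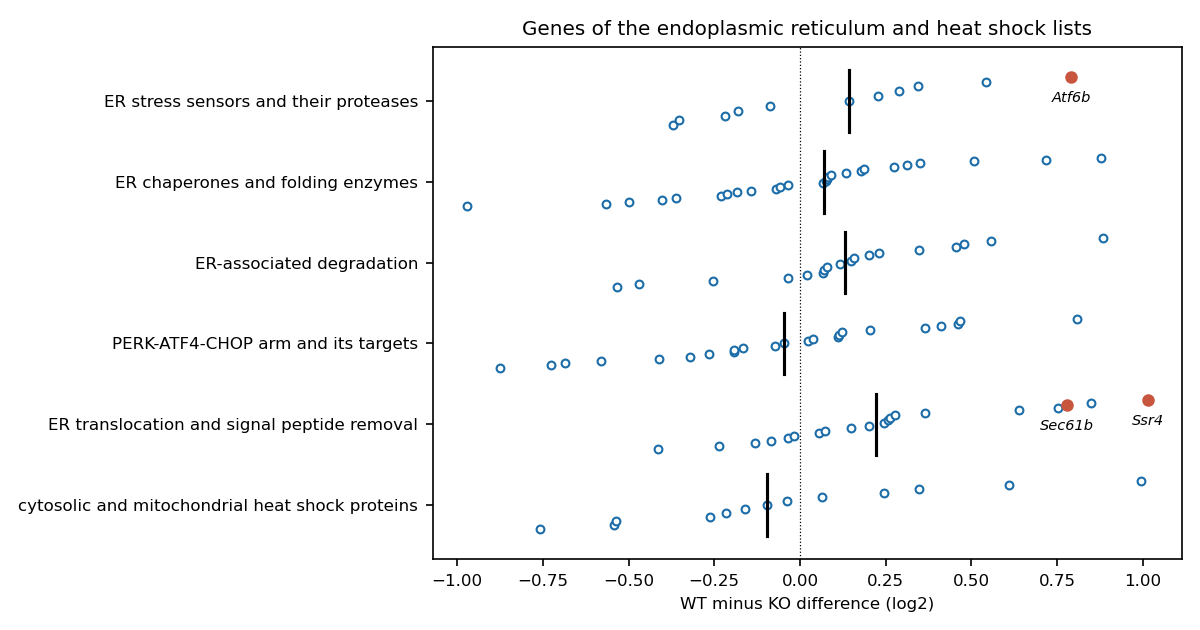
Difference between WT and KO means on the log2 scale for each measured gene of the 6 lists, 1 point per gene, with a bar at the median of each list. The 3 filled and named genes passed an adjusted p of 0.05, and the medians lie between -0.10 and 0.22.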

How the data were processed

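1 Affymetrix mouse array was run for the RNA of each of the 12 salivary tumors. The deposited table holds log2 values, which were taken as made with RMA, the method that the authors' methods name and which corrects background, quantile-normalizes and summarizes probes. The submitters' processing notes list MAS5 besides, with no role. Of 22690 probe sets, 64 controls were left out. Groups follow the labels, and each tumor counts as 1 replicate.

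A linear model with 1 mean per genotype and 9 residual degrees of freedom was fitted to the 12 tumors by lmFit and eBayes (limma 3.58.1, R 4.3.3), and 2-sided p-values of the contrasts were adjusted by Benjamini-Hochberg over 22626 probe sets with a threshold of 0.05. The number of arrays limits the precision. Simulated data had the mean spread within the 3 genotypes, as independent normal noise without differences between arrays. Of probe sets shifted in WT tumors, 53 of 100 at a log2 of 1 and 89 of 100 at 2 were recovered, with 5 false calls among 22426. The shifted ones were drawn at random from all probe sets, whose median SD within a genotype was 0.272, against 0.382 for members. Fewer were shifted than were called between WT and KO tumors in the data. Recovery at the spread of the members was not simulated. Coordination used 13824 exact permutations of tumors within genotypes. The rest was computed in Python 3.11.15 with pandas 2.3.3, numpy 2.4.6, scipy 1.17.1 and, for figures, matplotlib 3.10.9.

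Members, lists and tests were chosen with earlier results of these data known. All probe sets of the members are named, with difference and p where the unadjusted p was under 0.05, besides up to 4 called genes of each pathway list and comparison and the 5 probe sets most like Hspa5. The pathway lists are ER stress sensors and their proteases, ER chaperones and folding enzymes, ER-associated degradation, the PERK-ATF4-CHOP arm, ER translocation, and heat shock proteins. The 8 lists of cell type markers are of acini and demilunes, of luminal epithelium, of basal and myoepithelial cells, of granular ducts, of macrophages, of B and plasma cells, of skeletal muscle and of fibroblasts, and members of these are named after their values were seen. The tumor numbers are not stated to mark pairs, so tumors were left unpaired. Deviations from genotype means correlated between same-numbered tumors at 0.00226 to 0.335, above 0.1 in 6 of 12 pairs. These values do not settle whether the tumors are paired. As alternatives, dim probe sets were left out, and the fits were repeated with 3 normalizations, the 8 tumors of a comparison alone, trended and robust moderation, array weights, blocks, 1 probe set per gene, other thresholds, an unmoderated equal-variance test of the 8 tumors, and leaving out each tumor. The poly-A group used as a block was inferred from the spike-in controls. SAM, used in the study for its class comparisons, was not run here. The study also reports a t-test with Benjamini-Hochberg correction. With RMA at a 5% false discovery rate, that test gave it 10 genes in WT against KO and 0 in MT against KO. The unmoderated test here called as many probe sets. Ends of the member proteins, planned as a description, were not analysed here.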

Additional observations from a re-analysis of the deposited data

Results flagged for a closer look

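Of 63 groups of 4 tumors tested, 7 held a tumor whose gap to the nearest other, divided by the range of the group, exceeded Dixon's 95% critical value, and chance gives about 1 such group in 20. KO4 stood above the other KO tumors at Dnajb9 (gap ratio 0.839, level 9.78 against 8.30 to 8.54) and at the 3 probe sets of Calr, which move together and are not independent: 1417606_a_at (0.993, 11.90 against 11.23 in all of the others), 1433806_x_at (0.835, 11.29 against 10.67 to 10.77) and 1456170_x_at (0.875, where its level of 11.52 lay above all of them). WT2 was low at 1417606_a_at of Calr (0.87, 10.87 against 11.43 to 11.51). WT4 was high at Atf6 (0.832, 7.82 against 7.38 to 7.46) and at 1416497_at of Pdia4 (0.903, 9.95 against 9.15 to 9.23). KO4 also had the highest ratio of 3′ to 5′ actin signal, 1.05 on the log2 scale, and WT4 had an 18S rRNA control level of 7.51 against 8.90 to 9.33 in the other WT tumors. Their part in these values was not tested.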

How the results depend on the processing

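The number of member probe sets called was 0 in each comparison under the other alternatives, including adjusted p under 0.01 and 0.10 and each tumor left out in turn (0 to 0), with these exceptions. Array weights gave 2 in WT against KO (Hsp90b1 and Dnajb9) and 3 in MT against WT (Hsp90b1, Atf4 and Pdia4), while far more of all probe sets were called, as given below. The replicate block gave 1 in WT against KO, Hsp90b1 at 1438040_a_at (adjusted p = 0.0446 from limma), and changed no other member call. The 13 differences of members with an unadjusted p under 0.05 kept their sign in all 237 refits. Of these refits 5 passed, 4 with array weights and 1 with the replicate block. The 13 were picked by that p on the same data and the refits share most or all tumors, so kept signs carry little weight. Sizes did change: MT minus KO of Hsp90b1 at 1415889_a_at went from -0.82 to -0.04 with the poly-A group as a block.

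The coordination with Hspa5, 1 member (Hsp90b1), fell to 0 with the poly-A group as a block and ran from 0 to 1 with single tumors left out, 9 of which gave 0, while the highest r of any member stayed between 0.71 and 0.85 there. The block and the leaving out of MT4 are the same setting here. Fewer tumors leave fewer permutations.

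Of all probe sets, 1035 were called in WT against KO, and more than 1.5 times fewer under the unmoderated test (10), at adjusted p under 0.01 (61), with the 8 tumors alone (374), with 1 probe set per gene (557), with dim probe sets left out (604), and without WT3 (196), WT1 (269), KO3 (401), KO2 (452) or KO1 (627). Array weights (3280) and adjusted p under 0.10 (2541) gave more than 1.5 times more. The other alternatives gave 796 (without KO4) to 1360 (without WT4), with 1242 where each array was centered. In MT against KO they were 2, and 235 without MT4, 44 with array weights, 13 with the poly-A group as a block, 5 at adjusted p under 0.10, 4 without KO1, 3 without KO2 or dim probe sets, and 0 under the unmoderated test, the replicate block, 1 probe set per gene or the 8 tumors. In MT against WT the 83 became 4973 with array weights, 801 without MT4, 618 at adjusted p under 0.10, 578 without WT4, 276 without WT2, 133 without dim probe sets, 131 to 147 by normalization, 55 with 1 probe set per gene, 21 without MT2, 19 with the poly-A group as a block, 11 without MT1 or with the 8 tumors, 5 without WT3, 4 without MT3 or WT1 or at adjusted p under 0.01, and 0 under the unmoderated test. Of the 3 called list genes, Atf6b lost its call in 4 of 19 settings, Ssr4 in 9 and Sec61b in 13. Causes were not tested. With the poly-A group as a block the MT comparisons rest on MT4.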
